A study of Mus musculus with 2 samples.

Results

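The genes described here make up the pulmonary surfactant set. They are the 4 surfactant protein genes of the mouse (Sftpa1, Sftpb, Sftpc and Sftpd) and 5 genes whose products build, load or supply the lamellar body (Abca3, Lamp3, Napsa, Slc34a2 and Lpcat1). They were chosen by name, with earlier results of these data known. All 9 were found among the 22072 gene symbols of the deposited RNA-seq tables. The Mst1/2 CKO library came from adult mice with Scgb1a1-rtTA, tetOCre and both floxed genes (Mst1-flx/flx and Mst2-flx/flx), and the control library from adult mice with tetOCre and the same floxed genes. Both groups thus carried the Cre transgene and both floxed alleles, and both ate food with doxycycline at 625 mg/kg for 16 days. In the CKO mice the Scgb1a1 promoter, active in club cells of the bronchioles, drives the transactivator that lets doxycycline turn Cre on. The controls lack that transactivator, so its effects, those of active Cre and those of the deletion cannot be told apart. Lung cells were sorted as Lin-/CD326+/CD24-intermediate, a gate meant to enrich airway secretory cells without cilia. RNA of 4 mice was pooled within each genotype, giving 1 library per genotype and no replicate error for any value below.

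Surfactant is a film of lipid and protein that lowers surface tension in the air spaces. Alveolar type 2 (AT2) cells make it, store it in lamellar bodies, which are organelles related to lysosomes, and release it by exocytosis. The hydrophobic proteins SP-B and SP-C (Sftpb, Sftpc) are cut from larger precursors and spread the lipid, whereas SP-A and SP-D (Sftpa1, Sftpd) are soluble collectins of innate defence. Bronchiolar secretory cells also make some of these proteins, among them SP-A, SP-B and SP-D, while Sftpc is widely used as an AT2 marker. Mst1 and Mst2 (Stk4 and Stk3) are the kinases at the head of the Hippo pathway.

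All 9 genes were abundant in both sorted pools, and none was lower in the Mst1/2 CKO library as deposited, where 63.2% of all measured genes were above 0. FPKM, the authors' expression unit scaled by transcript length and by mapped fragments, ran from 60.3 for Abca3 to 10270 for Sftpc in the CKO library, and from 49.4 for Napsa to 7888 for Sftpc in the control library. The differences were graded and not uniform. Lpcat1 was 1.58-fold and Napsa 1.46-fold higher in the CKO library, Slc34a2, Lamp3 and Sftpc lay between 1.30-fold and 1.36-fold, Sftpd and Abca3 were both at 1.20-fold, and Sftpb and Sftpa1 were close to even at 1.05-fold and 1.03-fold. The Sftpa1 difference turned negative under 4 of 10 alternative settings, each a change of scaling or a correction for transcript length, and the Sftpb difference under 1.

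On the log2(FPKM + 1) scale, 5 of the 9 genes were at least 25% higher in the CKO library, against 12.8% of the 9945 genes that reached FPKM of 1 in either library, called measured here. Among the 456 genes that reached FPKM of 40, the level range of the 9, the share was 17.5%. The count was 3 when all ratios were centred on their median or on a trimmed mean, against 8.20% and 7.42% of measured genes. It was 4 with the transcript length trend removed, against 8.51%. Only Lpcat1 was at least 1.5-fold higher, against 3.02% of all measured genes and 7.46% of those reaching FPKM of 40. With the trimmed mean set to 0 none of the 9 was, against 1.98% of measured genes. In the other direction, the same fold means at least 20% lower. None of the 9 was, against 7.36% of measured genes and 12.5% of those reaching FPKM of 40, and 2.59% of measured genes were at least 1.5-fold lower. The median log2 difference was 0.38 for the 9 genes, 0.07 for all measured genes and 0.02 for those at FPKM of 40 or more. There is no test behind these counts, because 2 libraries without replicates allow none. In bulk libraries such as these, more cells of a type and more RNA per cell cannot be told apart.

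**Figure D1:**
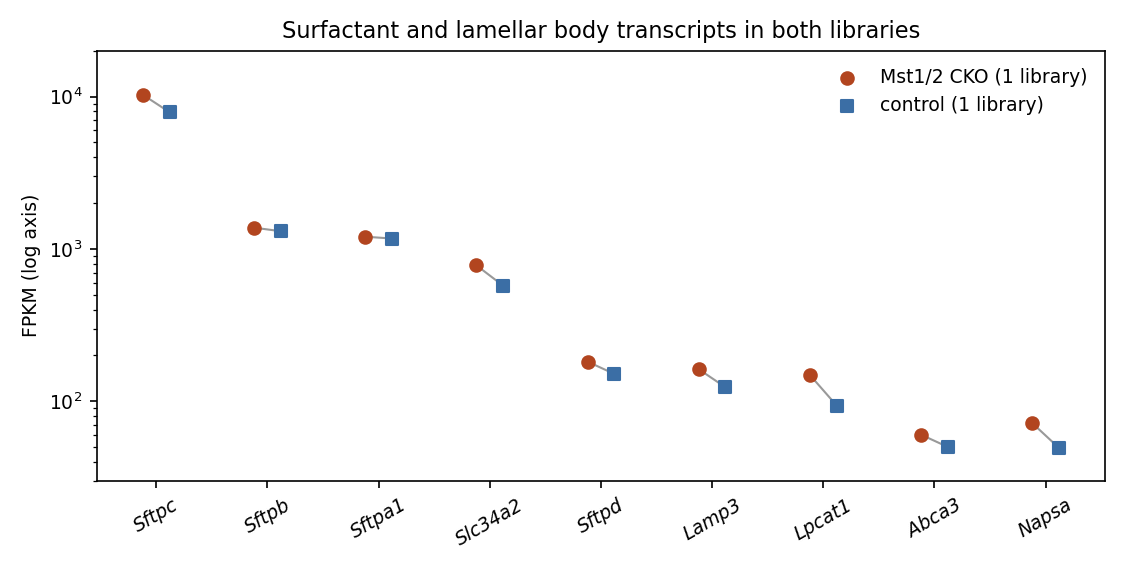
FPKM of each gene (log axis) in the Mst1/2 CKO library (circles) and the control library (squares), 1 pooled library each, ordered by the control level. Sftpc stands above all others, at 10270 in the CKO library and 7888 in the control library, while Sftpb and Sftpa1 hardly differ between the libraries.

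Sftpc (chr14:70920749-70923888, mm9), which encodes the precursor of the membrane-spanning peptide SP-C, was the most abundant transcript of both tables. This order leaves out Scgb1a1, the club cell secretoglobin gene, which is listed at 0 in both because its locus held too many reads for Cufflinks to estimate. Sftpc had an FPKM of 10270 in the CKO library and 7888 in the control library, a ratio of 1.30 with a 95% interval of 1.29 to 1.31. Intervals here come from approximate read numbers and cover counting error only, not mice, sorting or library preparation. Sftpc took up 2.39% of all sequenced bases on listed transcripts in the CKO library and 1.95% in the control library. It made up 72.0% of the summed FPKM of the 9 genes in the CKO library and 69.2% in the control library, so a sum over the set mostly follows this gene. Without Sftpc, the other 8 summed to 3985 in the CKO library and 3518 in the control library.

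Sftpb (chr6:72253242-72264364), the gene of the saposin-like peptide SP-B, had an FPKM of 1378 in the CKO library and 1307 in the control library. The ratio of 1.05 (1.04 to 1.07) placed it well below that of Sftpc, although both encode hydrophobic peptides packed into the same organelle. Per length, there were 7.45 Sftpc transcripts for each Sftpb transcript in the CKO library and 6.04 in the control library. The 250 bases before the Sftpb start are shown together with those of Sftpa1, because these were the genes of the set that differed least. Both are from RefSeq on GRCm38.p6, and both lie on the plus strand, Sftpb at chr6:72304360-72304609 and Sftpa1 at chr14:41131538-41131787. They are written 5′ to 3′, and capitals mark the core motifs of lung transcription factors described further on.
Sftpb: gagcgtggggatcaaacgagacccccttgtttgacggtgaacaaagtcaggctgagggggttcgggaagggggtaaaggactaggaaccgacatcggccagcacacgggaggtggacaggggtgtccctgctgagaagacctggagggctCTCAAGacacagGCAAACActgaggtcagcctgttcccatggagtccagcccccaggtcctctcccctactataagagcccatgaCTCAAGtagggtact
Sftpa1: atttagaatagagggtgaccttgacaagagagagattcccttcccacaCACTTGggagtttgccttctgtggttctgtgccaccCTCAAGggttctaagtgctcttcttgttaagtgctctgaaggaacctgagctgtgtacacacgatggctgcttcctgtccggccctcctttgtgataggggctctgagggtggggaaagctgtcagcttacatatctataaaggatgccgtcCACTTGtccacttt

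Sftpa1 (chr14:41945077-41949662), the gene of the collectin SP-A, had an FPKM of 1203 in the CKO library and 1170 in the control library, a ratio of 1.03 (1.02 to 1.04). Its difference ranked 211th among the 456 genes reaching FPKM of 40, near the middle. Sftpd (chr14:41985501-41998487), encoding the other surfactant collectin SP-D, had 182 in the CKO library and 151 in the control library, a ratio of 1.20 (1.16 to 1.2498). SP-A transcripts therefore outnumbered SP-D transcripts per length by 6.61-fold in the CKO library and 7.75-fold in the control library. The collectin genes are neighbours, with 35.8 kb between them, and the only gene listed in that gap is Mbl1, a serum mannose-binding lectin. Mbl1 was barely detected, at FPKM of 1.20 in the CKO library and 0.723 in the control library. Taken as a group, 1 of the 4 surfactant protein genes was at least 25% higher, with a median ratio of 1.13. Of the other 5 genes of the set, 4 were at least 25% higher, with a median ratio of 1.36. Both counts stand beside 12.8% of all measured genes. With ratios centred on their median or on a trimmed mean, Sftpc and Lamp3 dropped below the line. The counts were then 0 of 4 and 3 of 5, beside 8.20% of measured genes with the median and 7.42% with the trimmed mean.

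Slc34a2 (chr5:53440592-53462902) encodes the sodium-phosphate cotransporter NaPi-IIb of the apical membrane, which is thought to take up phosphate set free when surfactant phospholipid is broken down. It was the most abundant of the lamellar body and lipid group, with an FPKM of 780 in the CKO library and 573 in the control library. Its ratio was 1.36 (1.35 to 1.37), and it ranked 16th among all genes in the CKO library and 23rd in the control library. Lamp3 (chr16:19653474-19706458), the gene of a glycoprotein of the lamellar body membrane also known as DC-LAMP, had 162 in the CKO library and 123 in the control library. Its ratio was 1.31 (1.28 to 1.35). The upstream sequences of both are shown because their cores differ from those of Sftpa1 and Sftpb. Slc34a2 is read from chr5:53049103-53049352 on the plus strand and Lamp3 from chr16:19706366-19706615 on the minus strand, both GRCm38.p6, with the same use of capitals.
Slc34a2: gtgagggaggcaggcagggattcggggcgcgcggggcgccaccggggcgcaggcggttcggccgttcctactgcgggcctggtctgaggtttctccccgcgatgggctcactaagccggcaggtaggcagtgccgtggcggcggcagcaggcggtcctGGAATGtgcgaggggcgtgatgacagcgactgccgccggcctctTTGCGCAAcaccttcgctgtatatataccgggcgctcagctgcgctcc
Lamp3: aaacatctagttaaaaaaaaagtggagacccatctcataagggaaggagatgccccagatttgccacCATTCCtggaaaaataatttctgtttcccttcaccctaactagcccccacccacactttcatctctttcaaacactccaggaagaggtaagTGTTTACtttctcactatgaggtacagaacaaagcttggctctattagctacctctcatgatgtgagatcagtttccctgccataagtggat

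Abca3 (chr17:24488991-24547146) encodes the transporter that moves phospholipid across the lamellar body membrane. Its FPKM, summed over both of its transcript rows, was 60.3 in the CKO library and 50.1 in the control library, a ratio of 1.20 (1.17 to 1.24). The longer RefSeq transcript, of 6453 bases, carried 86.1% of it in the CKO library and 83.6% in the control library. That transcript had a ratio of 1.24, while the other, of 6380 bases, had FPKM of 8.38 in the CKO library and 8.22 in the control library. How Cufflinks shared reads between these nearly identical transcripts limits that contrast. The locus of D330041H03Rik overlaps that of Abca3, and its FPKM was 10.03 in the CKO library and 8.72 in the control library.

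Lpcat1 (chr13:73604831-73651986), which encodes the acyltransferase that remodels lysophosphatidylcholine into the dipalmitoyl lipid of surfactant, differed most. It had an FPKM of 149 in the CKO library and 93.7 in the control library, a ratio of 1.58 (1.52 to 1.65). Its rank among all genes was 94th in the CKO library and 180th in the control library, and 2.05% of measured genes had a larger difference in the higher direction. Napsa (chr7:51827815-51842216), encoding napsin A, the aspartic protease that helps cut the SP-B and SP-C precursors, had 71.8 in the CKO library and 49.4 in the control library. Its ratio was 1.46 (1.37 to 1.54), with 3.85% of measured genes showing a larger difference. Abca3 was the least abundant gene of the set in the CKO library, and Napsa in the control library, where they nearly tied at 50.1 for Abca3 and 49.4 for Napsa. With the higher Abca3 row alone, at 51.9 in the CKO library and 41.9 in the control library, Abca3 was the lowest in both. The order of the other 7 by level was the same in both.

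**Figure D2:**
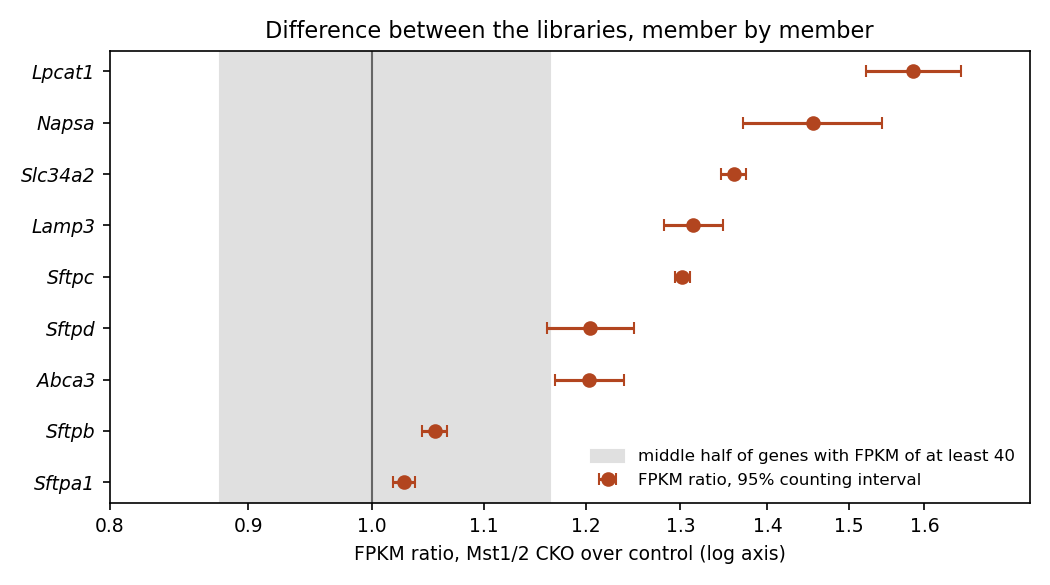
FPKM ratio of Mst1/2 CKO over control (log axis) for each gene, with the 95% interval for counting error. The grey band spans the 25th to 75th percentile of genes reaching FPKM of 40, from 0.878-fold to 1.16-fold on the log2(FPKM + 1) scale. Sftpa1 and Sftpb lie inside it, and the other 7 genes lie above its upper edge, from 1.20 to 1.58.

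Most of the set stood far above their closest relatives in the same libraries. On the per-length scale, Slc34a2 exceeded Slc20a1, a phosphate transporter of another family, 251-fold in the CKO library and 177-fold in the control library, and Slc20a2 222-fold in the CKO library and 182-fold in the control library. Of its own family, Slc34a3 was listed at 0 in both, and Slc34a1 had an FPKM of 0.023 in the CKO library and was listed at 0 in the control library. Sftpa1 exceeded Colec12, the most abundant measured collectin outside the set of 9, 349-fold in the CKO library and 281-fold in the control library. Abca3 exceeded Abca2, the most abundant other measured transporter of its subfamily, 20.2-fold in the CKO library and 17.8-fold in the control library. Lpcat1 exceeded Lpcat4 by 17.2-fold in the CKO library and 9.22-fold in the control library. Lpcat4 itself had an FPKM of 8.62 in the CKO library and 10.2 in the control library, and Lpcat3 10.6 in the CKO library and 9.34 in the control library. Sftpb exceeded Psap, the prosaposin gene, 124-fold in the CKO library and 84.3-fold in the control library, with Psap at 11.1 in the CKO library and 15.5 in the control library.

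Napsa and Lamp3 were the exceptions. Napsa was 1.92-fold above Ctsd, the general lysosomal aspartic protease, in the CKO library and 1.30-fold above it in the control library. Ctsd itself had 37.4 in the CKO library and 37.9 in the control library. Lamp3 was 1.68-fold above the general lysosomal protein gene Lamp2 in the CKO library and 1.32-fold above it in the control library, with Lamp2 at 96.7 in the CKO library and 93.8 in the control library. Lamp1 had 97.4 in the CKO library and 90.9 in the control library. The BRICHOS gene Itm2b, which shares a precursor domain with Sftpc, had 106 in the CKO library and 110 in the control library. Of 20 measured relatives, 2 were at least 25% higher on the log2(FPKM + 1) scale, against 12.8% of all measured genes. On the same scale, 2 were at least 20% lower, against 7.36%. The median log2 difference of the 20 relatives was 0.06, and that of all measured genes was 0.07. Those higher were Mbl1, given above, and the secretase gene Bace1 (2.35 in the CKO library and 1.63 in the control library). Those lower were Psap and Cd68, a macrophage lysosomal gene (3.54 in the CKO library and 4.90 in the control library). The scale shrinks ratios at low FPKM, and by plain FPKM ratio Abca1 (1.43) and Abca5 (1.38) were also more than 25% higher. Abca1 had 1.62 in the CKO library and 1.13 in the control library, and Abca5 had 1.71 and 1.24. No further measured relative was at least 20% lower by plain ratio.

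**Figure D3:**
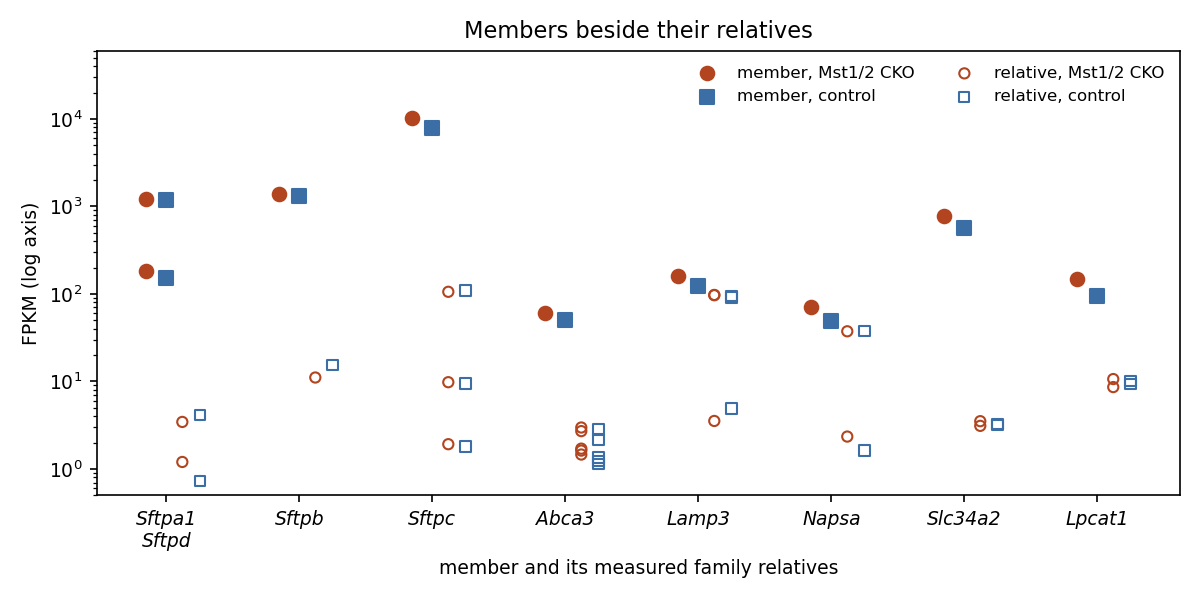
FPKM (log axis) of each surfactant gene (filled) and its measured relatives (open), Mst1/2 CKO as circles left of control as squares. Only for Napsa and Lamp3 does a relative come within 2-fold.

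Other genes of surfactant metabolism were counted in the same way, against the same shares of all measured genes, 12.8% at least 25% higher and 7.36% at least 20% lower. These counts use the log2(FPKM + 1) scale, which shrinks ratios at low FPKM. Some uncounted genes, higher or lower, therefore passed the same fold by plain FPKM ratio. Among 11 measured genes of precursor maturation and protein folding, only Ctsh was at least 25% higher on that scale. It encodes the cathepsin H that also cuts SP-B and SP-C precursors, and had 164 in the CKO library and 112 in the control library. The list median was -0.03, and the ER chaperone gene Hspa5 had 120 in the CKO library and 123 in the control library. Nedd4l, a ubiquitin ligase gene, had 9.80 in the CKO library and 7.69 in the control library, a plain ratio of 1.27 that fell just short on that scale. Napsa and Ctsh, which both encode proteases of the SP-B and SP-C precursors, each had a ratio of 1.46. In the list of organelle assembly, 2 of 20 were at least 25% higher and 1 lower, with a median of 0.07. Vps33b, of vesicle fusion, had 7.96 in the CKO library and 5.88 in the control library, and the adaptor subunit gene Ap3s1 3.78 in the CKO library and 5.90 in the control library.

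Lipid supply genes were split by pathway step. Of 14 measured genes of fatty acid supply, 8 were at least 25% higher and none lower, with a median of 0.33. This list shares Fasn, Scd1 and Fabp5 with the AT2 markers below. The desaturase Scd2 had an FPKM of 48.6 in the CKO library and 27.3 in the control library, and the lipase gene Lpl had 6.90 in the CKO library and 4.10 in the control library. Scd1, the most abundant gene of this list, had 510 in the CKO library and 457 in the control library. Of 18 measured genes that assemble phosphatidylcholine and phosphatidylglycerol, 1 was at least 25% higher and 1 lower, with a median of 0.10. The higher one was Cds2 (3.28 in the CKO library and 2.40 in the control library) and the lower one Ppap2b (17.1 in the CKO library and 22.2 in the control library). The choline kinase gene Chka had 32.3 in the CKO library and 31.6 in the control library. Of 7 measured genes for uptake and clearance, 1 was at least 25% higher and none lower, with a median of 0.02. That gene was Prdx6, whose product has the phospholipase activity used to recycle surfactant lipid. Prdx6 had 426 in the CKO library and 271 in the control library. It was also at least 1.5-fold higher, against 3.02% of all measured genes.

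Of 16 measured secretion genes, 3 were at least 25% higher and none lower, with a median of 0.20. Gpr116, an adhesion receptor that restrains surfactant pools in mice, had 32.9 in the CKO library and 24.3 in the control library, and the membrane-fusion gene Anxa2 had 39.8 in the CKO library and 30.7 in the control library. Vamp8, the most abundant of this list in the control library, had 39.3 in the CKO library and 33.5 in the control library. Among 19 transcription factors and cofactors that act on surfactant genes, 2 were at least 25% higher and none lower, with a median of 0.11, which is no larger a share than the 12.8% of all measured genes. Those were Etv5, an ETS factor of AT2 cells, at 65.2 in the CKO library and 45.9 in the control library, and Tead1, a partner of Yap, at 14.5 in the CKO library and 10.3 in the control library. Nkx2-1, the homeodomain factor that binds surfactant gene promoters, had 88.1 in the CKO library and 74.2 in the control library.

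**Figure D4:**
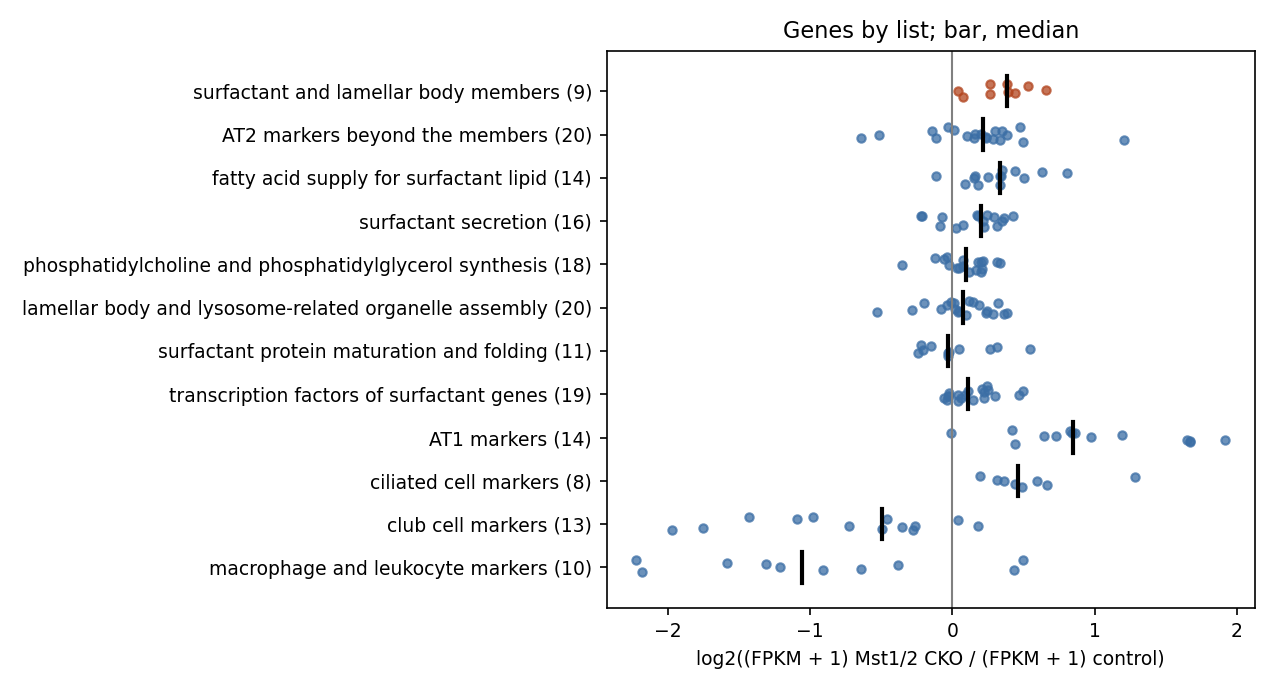
Log2 difference (FPKM + 1, Mst1/2 CKO over control) of each measured gene by list, the surfactant set at the top and the number of genes in parentheses. Black bars mark medians, 0.38 for the surfactant set, 0.33 for fatty acid supply, 0.85 for alveolar type 1 markers and -0.49 for club cell markers.

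The sorted pools held transcripts of several cell types, and these differed between the libraries together with the surfactant set. Of 20 other measured AT2 markers, 6 were at least 25% higher and 2 lower, with a median of 0.22. The shares of all measured genes, 12.8% higher and 7.36% lower, stand beside this count and the marker counts that follow. This list also shares Etv5 with the transcription factors and Cd36 with the uptake and clearance genes. The summed FPKM over all 21 AT2 markers was 10882 in the CKO library and 9654 in the control library, and none was at 0. Lyz2, the most abundant, had 7257 in the CKO library and 6170 in the control library. The amino acid transporter gene Slc6a14 had 10.3 in the CKO library and 3.91 in the control library, while the lipocalin gene Lcn2 had 236 in the CKO library and 369 in the control library.

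Alveolar type 1 markers were higher in 13 of 14 measured genes by at least 25%, beside 12.8% of all measured genes. They summed to 472 in the CKO library and 212 in the control library, with none at 0. Ager, a membrane receptor of those cells, had 107 in the CKO library and 32.9 in the control library. Club cell markers summed to 10627 in the CKO library and 12524 in the control library, with Scgb1a1 listed at 0 in both. Of 13 measured genes, 9 were at least 20% lower, beside 7.36% of all measured genes. Cbr2, a carbonyl reductase gene and the most abundant measured club cell marker in the control library, had 3803 in the CKO library and 5224 in the control library. Cyp2f2, a cytochrome gene and the most abundant measured club cell marker in the CKO library, went the other way, at 5305 in the CKO library and 4694 in the control library, and Hp had 410.5 in the CKO library and 400.3 in the control library. The secretoglobin gene Scgb3a2 had 256 in the CKO library and 691 in the control library. Ciliated cell markers summed to 58.1 in the CKO library and 35.8 in the control library, with 6 of 8 measured genes at least 25% higher. Macrophage and leukocyte markers summed to 16.1 in the CKO library and 54.8 in the control library, with none of 16 at 0. Of 10 measured genes, 8 were at least 20% lower and 2 at least 25% higher. Those 2 were Csf1r (1.80 in the CKO library and 0.984 in the control library) and Cd79a (1.06 in the CKO library and 0.527 in the control library). Basal markers also summed lower, to 7.52 in the CKO library and 21.8 in the control library. Mucous markers summed to 10.1 in the CKO library and 31.4 in the control library. Mesenchymal markers summed to 8.34 in the CKO library and 19.3 in the control library. Dcn was the largest part of this sum, at 3.79 in the CKO library and 11.9 in the control library. Acta2 was higher and Col1a1 nearly even, both below FPKM of 1. Endothelial markers summed to 6.66 in the CKO library and 11.3 in the control library. Of these 6 markers only Kdr reached FPKM of 1, at 5.11 in the CKO library and 9.05 in the control library. Cdh5, Cldn5 and Tie1 were slightly higher, all below FPKM of 1. The part of any of these cell types in the surfactant differences was not tested. Of the sort antigens, Epcam (CD326) had 31.0 in the CKO library and 28.2 in the control library, and Cd24a 116 in the CKO library and 127 in the control library. The targeted genes were little reduced, Stk4 at 4.71 in the CKO library and 5.38 in the control library, and Stk3 at 7.09 in the CKO library and 7.28 in the control library, and the labels do not name the exons removed.

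The genes around the surfactant loci did not share their levels. Of 18 overlapping or flanking genes, 13 reached FPKM of 1, with a median log2 difference of 0.18 and a highest FPKM of 37.6 in the CKO library and 30.8 in the control library. That highest neighbour was Lgi3, 6.74 kb from Sftpc and itself among the AT2 markers, with a ratio of 1.22. Bmp1, a procollagen protease gene on the other side and only 682 bases from Sftpc, had 5.67 in the CKO library and 5.21 in the control library. Mbl1, given above, was among those at least 25% higher. Of these 13, 1 was at least 20% lower, against 7.36% of all measured genes. That gene was Mrpl36, a mitochondrial ribosomal gene 135 kb from Lpcat1 (6.92 in the CKO library and 9.81 in the control library).

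Among 133 other genes with FPKM of at least 100 in both libraries, the 5 whose FPKM ratio lay nearest the median of the set, 1.30, were Hc, Krt19, Phlda1, Bsg and Mettl7a1. Likeness here means a single ratio over 2 libraries. Hc, which encodes complement component C5 and is also one of the AT2 markers above, had 143 in the CKO library and 109.6 in the control library. The keratin gene Krt19 had 135 in the CKO library and 108 in the control library. The ratios of these 5 genes ran from 1.249 to 1.36.

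Upstream sequences were matched for 6 of the 9 genes, and 6 core motifs were searched on both strands in the 250 bases before the start. CTCAAG, a core bound by NKX2-1, was found in Sftpa1 and Sftpb, against 13.3% of 32851 promoter windows of the same length. CAAGTG, another NKX2-1 core, was found at 2 places in Sftpa1, against 11.6% of windows holding at least 1. GGAATG, the core of TEAD factors, the DNA-binding partners of Yap and Taz, was found in Abca3, Lamp3 and Slc34a2, against 12.6% of windows. Neither form of the FOXA core was common, with TGTTTAC in Lamp3 (3.17% of windows) and TGTTTGC in Sftpb (4.30%). TTGCGCAA, a palindrome bound by C/EBP factors, was found 48 bases before the Slc34a2 start, against 0.164% of windows. Lpcat1, which differed most between the libraries, held none of the 6 in this window. The windows also differed in CpG content, with 28 CpG dinucleotides in Slc34a2, 21 in Abca3 and 16 in Lpcat1, and with 7 in Sftpb, 3 in Sftpa1 and 0 in Lamp3, around a median of 6. These matches describe letters and show no binding.

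**Figure D5:**
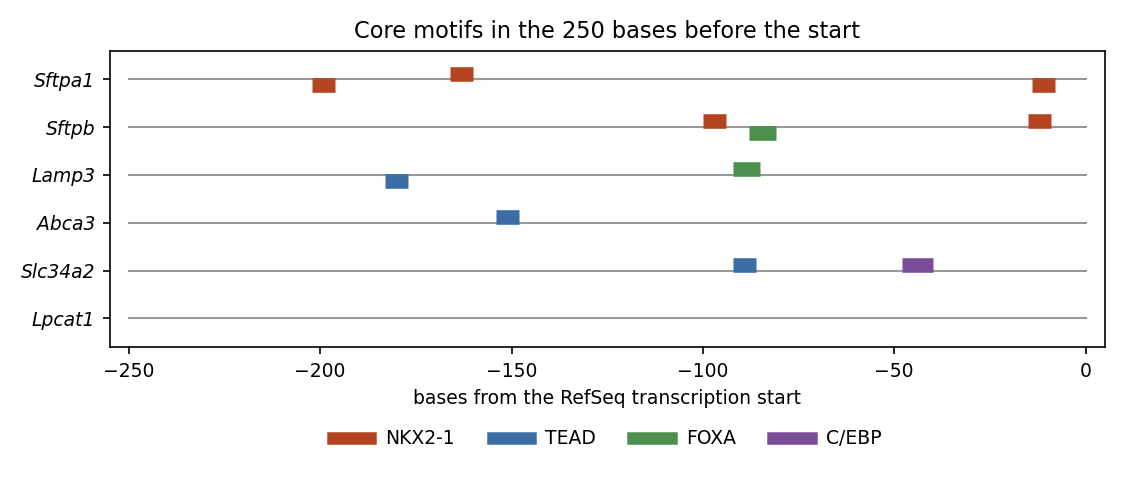
Positions of the core motifs, in bases before the RefSeq start, for the 6 genes with a matched upstream sequence; marks above the line are on the gene's strand and marks below it on the other. NKX2-1 cores lie in Sftpa1 and Sftpb, TEAD cores in Lamp3, Abca3 and Slc34a2, and Lpcat1 holds none.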

How the data were processed

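Each library has 1 table with a row per RefSeq transcript. The tools were TopHat and Cufflinks on the mm9 build, per the submitters' processing notes. The read length was not given in the sources used here, nor were tool versions or strandedness. The FPKM values are as the authors deposited them, scaled by transcript length and mapped fragments. The deposited coverage column is a signal, the mean read depth over a transcript. Start positions were raised by 1 to count from 1. FPKM was summed per gene symbol. Differences are log2((FPKM + 1) in Mst1/2 CKO over (FPKM + 1) in control), for genes reaching FPKM of 1 in either library, computed with pandas 2.3.3. With 1 library per genotype no test was run.

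Depth on listed transcripts came from coverage times length, 393 Mb in the CKO library and 413 Mb in the control library. A read was taken as 47.1 bases, the median of low single-transcript rows between 25 and 75 bases, which is an assumption. Exact (Clopper-Pearson) 95% intervals of the ratio were computed with scipy 1.17.1 from these approximate reads and cover counting error only. They were scaled by the CKO over control ratio of median coverage per FPKM, 0.895, and not by the listed depth. As shares of listed bases, Sftpa1 (0.969% in the CKO library and 1.002% in the control library) and Sftpb (0.750% in the CKO library and 0.755% in the control library) were slightly lower in the CKO library.

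The members and the 26 gene lists were chosen with earlier results of these data known, and the motifs and the FPKM of 40 after values or sequences were seen. Named genes were the members, the relatives, sort antigens and targeted genes, and from each list the most abundant gene in the control library, the 2 with the largest difference and those at least 1.5-fold apart, of which a selection is given. Scripts were tested on simulated data. Promoter sequences are from RefSeq (GRCm38.p6), and no coordinates were converted between builds. Alternatives changed the pseudocount, filter, row choice, scaling, length trend (statsmodels 0.14.6) and row status.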

Additional observations from a re-analysis of the deposited data

How the results depend on the processing

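No paired analysis was possible because each genotype has 1 library, and no replicate could be left out. The 10 alternatives gave these departures. The count of genes at least 25% higher was 5 as reported, against 12.8% of all measured genes. It was 3 with the median ratio of all genes set to 1, against 8.20% of measured genes. With the trimmed mean of log ratios set to 0 it was 3, against 7.42%. With the transcript length trend removed it was 4, against 8.51%. The trimmed mean also left 0 genes at least 1.5-fold higher, against 1 as reported. The median log2 difference of the 9 genes, 0.38, became 0.37 with a pseudocount of 10, 0.33 as TPM, 0.31 with the median ratio set to 1, 0.29 with the trimmed mean set to 0 and 0.31 with the transcript length trend removed. The Sftpa1 difference of 0.04 turned negative as TPM (-0.012), with the median ratio set to 1 (-0.030), with the trimmed mean set to 0 (-0.050) and with the length trend removed (-0.028). The Sftpb difference of 0.08 turned negative with the trimmed mean set to 0 (-0.012). The other 7 genes stayed above 0 in all 10 alternatives, Lpcat1 between 0.57 and 0.66 and Abca3 between 0.15 and 0.30. Counting error is small for these abundant transcripts, so read depth does not limit their ratios, whereas the lack of replicate libraries does.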

Other observations

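The TEAD core GGAATG, found upstream of 3 surfactant genes, was also counted over all measured genes with a promoter window. Of 893 measured genes whose windows held it, 16.6% were at least 25% higher in the Mst1/2 CKO library, against 11.7% of 6125 genes without it. The median log2 difference was 0.09 in genes with the core and 0.07 in genes without it. The NKX2-1 cores went opposite ways. For CTCAAG the shares were 11.3% of 1022 genes with it and 12.5% of 5996 genes without it, and for CAAGTG 13.6% of 793 with it and 12.2% of 6225 without it. So did the FOXA cores, with 18.2% of 187 genes with TGTTTAC and 12.2% of 6831 without it, and 10.9% of 274 genes with TGTTTGC and 12.4% of 6744 without it. For the C/EBP palindrome TTGCGCAA, only 25 measured genes held it. These shares come from 1 pair of libraries, were computed after the motif positions were seen, and have no test.

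Lpcat1 came closer to Lamp3, at 149 against 162 in the CKO library and 93.7 against 123 in the control library. Together the 9 genes took up 5.50% of sequenced bases on listed transcripts in the CKO library and 4.81% in the control library, and their summed FPKM was 14255 in the CKO library and 11405 in the control library.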
